A study of Gallus gallus with 4 samples.

Results

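The genes described here encode exchangers and cotransporters that move bicarbonate, chloride, protons, sodium, potassium, calcium, magnesium, zinc, iron and manganese across membranes. They are the rows of the expression table with a single gene name in the families SLC4, SLC8, SLC9, SLC11, SLC12, SLC24, SLC26, SLC30, SLC39 and SLC41. There were 68 such rows of 18973, each with a name of its own. Of these, 3 carry a transporter's name but are known as partners of one: SLC4A1AP (kanadaptin), and the scaffold genes SLC9A3R1 and SLC9A3R2.

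The RNA came from the breast (pectoralis) muscle of chickens at day 28 after hatching. The Ross 708 birds are commercial broilers, a line bred for meat, and the Isfahani birds are a native Iranian breed. RNA of 3 birds was mixed in equal parts for a library, and 2 such libraries were made per breed, which makes 6 birds a breed. The labels give neither sex nor flock, and the birds of a breed cannot be told apart within a pool. The table holds 1 FPKM value per breed and gene, a level per length of transcript and per library size. No breed value below therefore has an SD or an n, and the sequencing depth is unknown. Its columns are headed Commercial and Native, which were read as Ross 708 and Isfahani.

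In muscle, contraction and glycolysis load the fibre with acid, sodium and calcium. Sodium-proton exchangers, and those bicarbonate transporters that take bicarbonate up with sodium, carry acid equivalents out. Sodium-calcium exchangers help to remove calcium, and cation-chloride cotransporters set chloride and cell volume. Zinc is handled by opposed families: SLC30 proteins move it out of the cytosol, into vesicles or out of the cell, and SLC39 proteins move it into the cytosol. SLC41 proteins carry magnesium, and SLC11A1 carries iron and manganese out of the phagosomes of macrophages.

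The authors tested 42 of the 68 genes, and the other 26 are marked NOTEST, which Cuffdiff, whose layout the table has, writes where the signal is too low to test. Of the 42, 3 had a q-value at or under 0.05 in the authors' deposited table, and these are called changed. SLC4A4 and SLC39A6 rose in Ross 708, SLC26A5 fell, and 39 were not called. That is 7.14% of the tested members, against 5.21% of all 11626 tested rows, so at this threshold the share of calls was near the background. By direction the backgrounds were 3.07% for higher and 2.14% for lower in Ross 708. At a q-value of 0.1 there were 4 calls higher and 2 lower among the 42, a larger share than the background of 7.5%. There were none at 0.01 (background 2.73%). None of the calls at 0.05 had a log2 ratio of at least 1 with 1 FPKM added to each value (background 3.09%). In the authors' deposited table, the log2 fold changes of SLC4A4 and SLC39A6, with none added, were 1.05 and 1.11. An unadjusted p under 0.05 in the authors' deposited table was found for 12 members, or 28.6% of those tested, against 17% of all tested rows. Of these, 7 were higher and 5 lower in Ross 708, with backgrounds of 9.06% and 7.96%. Among 205 other rows with an SLC name, 125 were tested, 2 were called higher in Ross 708 and 5 lower. No test of the difference between these sets was made.

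All differences between the breeds are given as the log2 ratio of (Ross 708 FPKM + 1) over (Isfahani FPKM + 1), which understates the change of low genes. The 42 tested members had a median ratio of 0.14, between -1.04 for SLC11A1 and 0.85 for SLC30A1, and the median of all tested rows was -0.034. Ross 708 had the higher value in 26 members (61.9%), against 46.5% of all tested rows. Centring on the median of rows that reached 1 FPKM in each breed raised the shares to 73.8% and 51.6%, and rescaling to a common sum of all rows lowered them to 57.1% and 36.8%. The sum of all rows includes 39 rows with a failed estimate that are listed at 0 in Isfahani, so that scaling is less certain. One of them, TNNI2, is listed at 13272 FPKM in Ross 708.

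**Figure D1:**
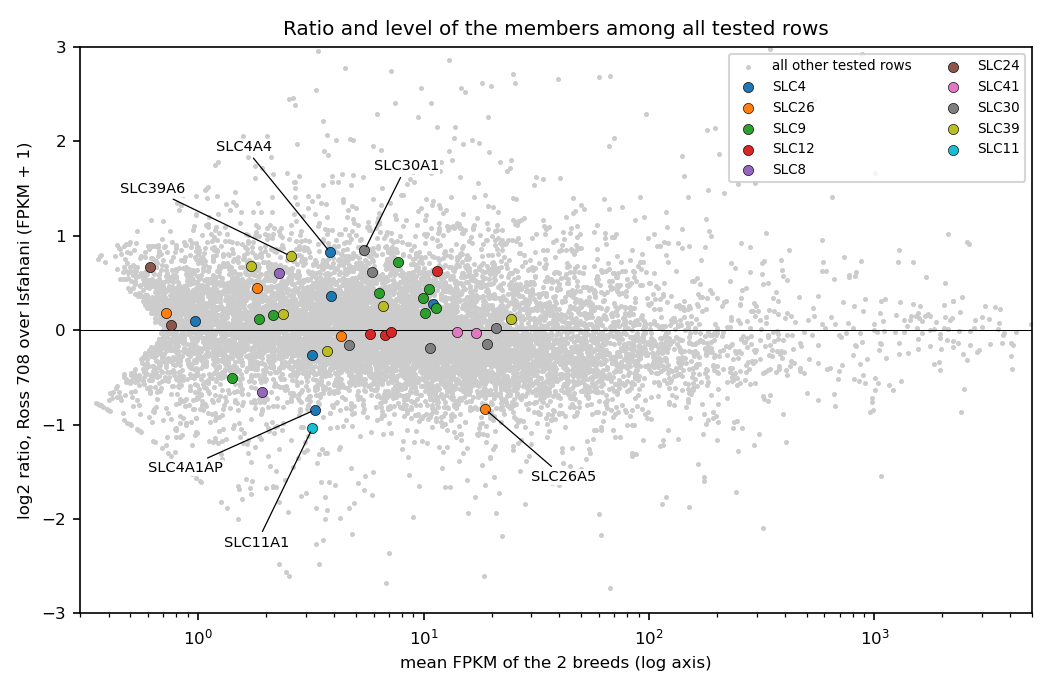
Each point is a tested row, with its mean FPKM over the breeds on a log axis and its log2 ratio of Ross 708 over Isfahani on the vertical axis; members are coloured by family, other rows are grey, and 33 rows lie outside the axes. The members lie among the other rows, with SLC30A1 and SLC4A4 at the top and SLC11A1 at the bottom.

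The tested members were expressed at low to middle levels. The median level of these 42 was 5.43 FPKM in Ross 708 and 4.59 FPKM in Isfahani. Over all tested rows it was 6.96 FPKM in Ross 708 and 6.93 FPKM in Isfahani. The untested members, which lay lower, are not in this median. The highest in Ross 708 were SLC39A13, a zinc carrier of the secretory pathway, at 25.5 FPKM, SLC30A4, a zinc carrier of endosomes and other vesicles, at 21.04 FPKM, and SLC30A5, a zinc carrier of the early secretory pathway, at 17.99 FPKM. In Isfahani the highest was SLC26A5, at 24.3 FPKM, ahead of SLC39A13 at 23.4 FPKM, SLC30A4 at 20.7 FPKM and SLC30A5 at 20.03 FPKM. SLC26A5 ranked 7 in Ross 708 and 1 in Isfahani. With no spread between libraries, no neighbours in these orders can be said to differ.

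Of the 26 untested members, 16 were listed at 0 in both breeds. These include the kidney cation-chloride cotransporter genes SLC12A1 and SLC12A3, the anion exchanger genes SLC26A3, SLC26A4, SLC26A6 and SLC26A9, the proton exchanger genes SLC9A3 and SLC9A4, and the zinc carrier genes SLC30A8, SLC39A5, SLC39A8 and SLC39A14. The others of this group were SLC4A8, SLC4A9, SLC24A1 and SLC24A5. A value listed at 0 may not show that a gene is silent. The fibroblast marker COL1A1 was also untested and listed at 0 in both breeds. Its list also held COL1A2, at 476 FPKM in the broilers and 304 FPKM in Isfahani. Why COL1A1 was listed at 0 was not tested. None of these 16 members is among the 39 rows with too many fragments for the authors' method. Those rows are listed at 0 in Isfahani, the fast troponin genes TNNC2, TNNI2 and TNNT3 among them. The other 10 untested members, SLC4A10, SLC12A5, SLC12A8, SLC24A2, SLC26A1, SLC26A7, SLC30A2, SLC30A10, SLC39A12 and SLC41A2, lay at or under 0.556 FPKM, the level of SLC30A2 in Isfahani.

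Markers of several other cell types differed in value between these pools. Muscle markers summed to 4626 FPKM in Ross 708 and 4479 FPKM in Isfahani over 5 tested genes, of which MYOD1 was called lower in Ross 708. Desmin (DES, 1917 FPKM in Ross 708 and 1971 FPKM in Isfahani) and ACTN2 (2559 FPKM in Ross 708 and 2234 FPKM in Isfahani) were abundant in both breeds. Of the tested markers, those of adipocytes summed to 443 FPKM in Ross 708 and 148 FPKM in Isfahani (5 of 8 called higher, none lower), those of fibroblasts to 3086 FPKM in Ross 708 and 1906 FPKM in Isfahani (2 of 8 higher), and those of macrophages to 3077 FPKM in Ross 708 and 2365 FPKM in Isfahani (2 of 11 higher). The adipocyte marker LPIN1 went the other way, at 14.1 FPKM in Ross 708 and 35.6 FPKM in Isfahani, and was not called. Most of the macrophage sum was CD74, also not called, at 2734 FPKM in Ross 708 and 2138 FPKM in Isfahani. The largest part of the fibroblast sum was COL3A1, not called either, at 1582 FPKM in Ross 708 and 957 FPKM in Isfahani. Over all tested rows, 3.07% were called higher in Ross 708 and 2.14% lower. Smooth muscle markers summed to 41.4 FPKM in Ross 708 and 25.01 FPKM in Isfahani (1 of 4 higher), endothelial markers to 70.7 FPKM in Ross 708 and 51.7 FPKM in Isfahani (0 of 9, 2 at an unadjusted p under 0.05), and nerve markers to 19.2 FPKM in Ross 708 and 22.3 FPKM in Isfahani (0 of 2, none at that p). Immediate early genes, which respond to handling among other stimuli, summed to 759 FPKM in Ross 708 and 178 FPKM in Isfahani (5 of 5 higher). Of the red cell list, 3 genes were tested and none called at either threshold (114 FPKM in Ross 708 and 102 FPKM in Isfahani). Most of that sum was ANK1, at 83.2 FPKM in Ross 708 and 62.6 FPKM in Isfahani. SPTB, at 24.2 FPKM in Ross 708 and 32.3 FPKM in Isfahani, and RHCE went the other way. RHAG and EPB42 were untested, and the globin genes HBAA, HBAD and HBZ were listed at 0 in both breeds. The part of these cells in the results below was not tested. In whole muscle, fewer cells of a type and less RNA per cell cannot be told apart.

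**Figure D2:**
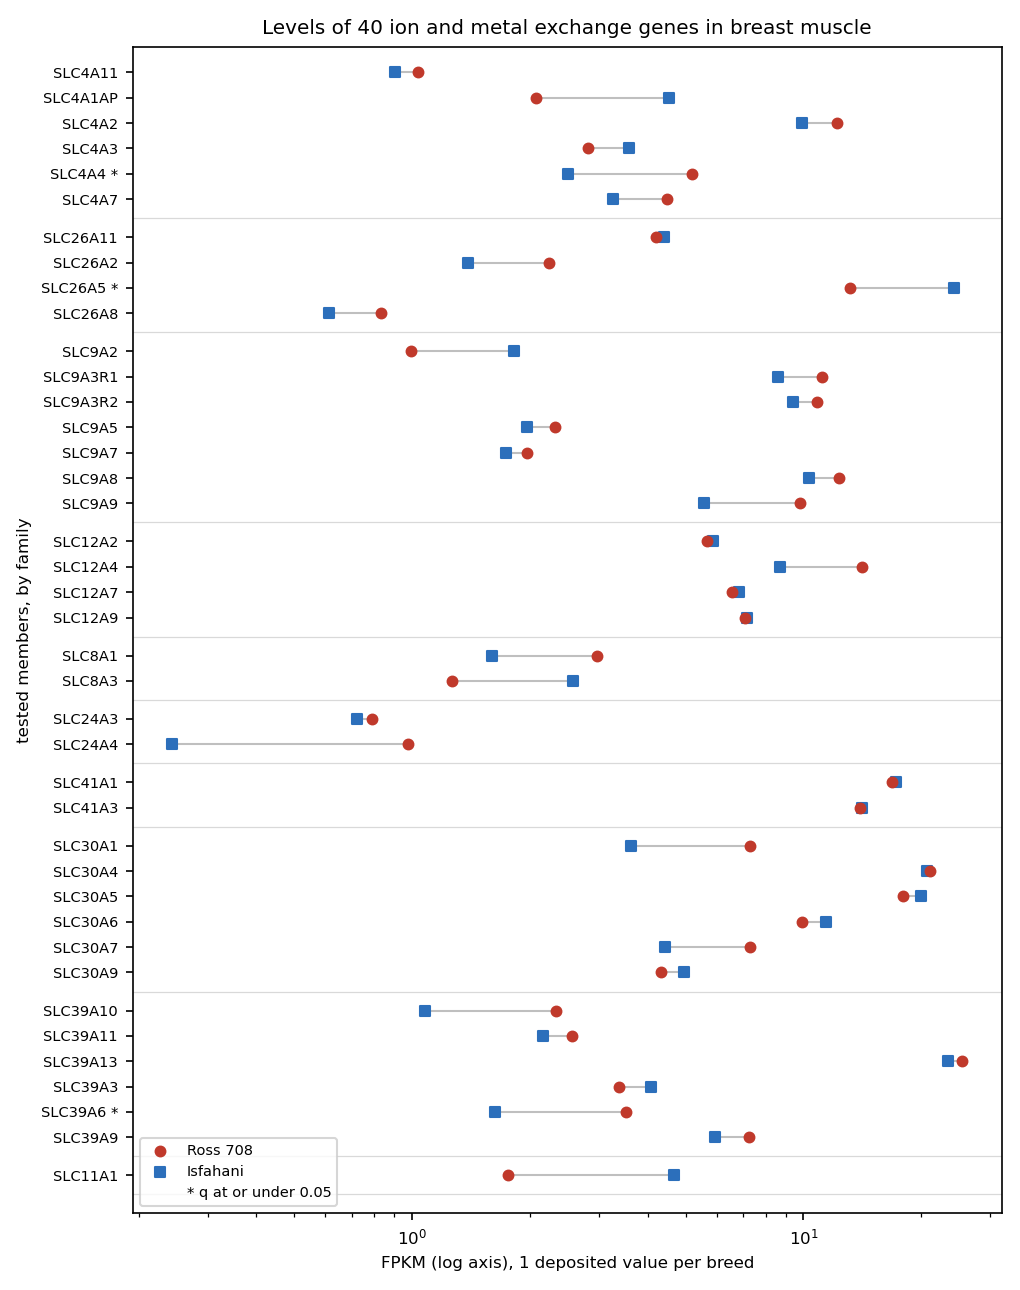
Deposited FPKM of 40 of the 42 tested members on a log axis, grouped by family, with red circles for Ross 708, blue squares for Isfahani and an asterisk for a q-value at or under 0.05. The circle lies to the right for SLC4A4 and SLC39A6 and to the left for SLC26A5, while the points of SLC41A1, SLC41A3, SLC12A9 and SLC30A4 nearly coincide.

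Among the bicarbonate transporters, SLC4A4 rose in Ross 708. Its protein, NBCe1, takes bicarbonate up with sodium and so buffers acid in the cell. SLC4A4 stood at 5.20 FPKM in Ross 708 and 2.50 FPKM in Isfahani, 2.08-fold higher in Ross 708, a log2 ratio of 0.82. In the authors' deposited table its log2 fold change was 1.05 and its q-value 0.0205. The locus is given as chromosome 4, 49571258 to 49794271, and no other row overlaps it. Loci are printed as deposited: the processing notes name galGal5, but some scaffold names in the table are those of an earlier assembly, so their build is not settled. SLC4A2, the widely expressed chloride-bicarbonate exchanger, had the highest level of the family, at 12.2 FPKM in Ross 708 and 9.90 FPKM in Isfahani, a ratio of 0.27; its q-value was 0.929 in the authors' deposited table, and its locus is shared with FASTK, so it is less certain. The remaining tested transporters of the family, SLC4A3, SLC4A7 and SLC4A11, were not called and had ratios between -0.26 and 0.36. Of all 5 tested SLC4 transporters, 4 had the higher value in Ross 708, also under each of 3 other scalings, and their summed level was 25.7 FPKM in Ross 708 and 20.2 FPKM in Isfahani.

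SLC4A1AP, whose protein was first described in mammals as an adaptor of the kidney anion exchanger, had the lower value in Ross 708. It stood at 2.08 FPKM in Ross 708 and 4.52 FPKM in Isfahani, a ratio of -0.84. The authors' deposited table gives a q-value of 0.136, so it was not called, and it shares its locus with SUPT7L, so its reads are less certain.

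SLC26A5 fell in Ross 708. Its protein, prestin, is the motor of outer hair cells in the mammalian ear; in birds and fish it is known as an anion exchanger. SLC26A5 stood at 13.2 FPKM in Ross 708 and 24.3 FPKM in Isfahani, 1.85-fold lower in Ross 708, a log2 ratio of -0.84. The authors' deposited table gives it a log2 fold change of -0.88 and a q-value of 0.0261. The locus is given as chromosome 1, 12813773 to 12848639, with no overlapping row. The gene made up 64.4% of the summed level of the tested SLC26 genes in Ross 708 and 79.1% in Isfahani, so the family sum, 20.4 FPKM in Ross 708 and 30.7 FPKM in Isfahani, followed it. The other tested members were SLC26A2, a sulphate transporter gene needed by cartilage, SLC26A8, known from human sperm, and SLC26A11. None was called in the authors' deposited table, and their ratios ran from -0.058 to 0.44.

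None of the 9 tested SLC9 genes was called in the authors' deposited table, and 1, SLC9A2, had an unadjusted p under 0.05, with the lower value in Ross 708. The value was higher in Ross 708 for the other 8, also under each of these scalings, and the family's median ratio was 0.23. Without the 2 scaffold genes, 6 of 7 exchangers had the higher value in Ross 708. Over all tested rows this share was 46.5%, and 36.8% to 51.6% under the other scalings. SLC9A9, whose exchanger sits in late recycling endosomes, had 9.79 FPKM in Ross 708 and 5.56 FPKM in Isfahani, a ratio of 0.72 that did not pass the test (0.477 as the q-value of the authors' deposited table). SLC9A8, of the Golgi, stood at 12.3 FPKM in Ross 708 and 10.3 FPKM in Isfahani. SLC9A5 and SLC9A7 had ratios of 0.16 and 0.11. The scaffold genes, whose proteins tie exchangers to the cortical cytoskeleton, were not called: SLC9A3R1 stood at 11.2 FPKM in Ross 708 and 8.62 FPKM in Isfahani, and SLC9A3R2 at 10.8 FPKM in Ross 708 and 9.43 FPKM in Isfahani. The locus of SLC9A3R1 overlaps a row with no gene symbol, so it is less certain.

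Cation-chloride cotransporters split between 1 gene with a higher value in Ross 708 and 3 with nearly equal values. SLC12A4, the broadly expressed potassium-chloride cotransporter that sheds salt from swollen cells, stood at 14.1 FPKM in Ross 708 and 8.73 FPKM in Isfahani, a ratio of 0.63. With a q-value of 0.136 and an unadjusted p of 0.0123 in the authors' deposited table, it was not called. SLC12A7, a second potassium-chloride cotransporter, stood at 6.58 FPKM in Ross 708 and 6.82 FPKM in Isfahani. SLC12A2, the sodium-potassium-chloride cotransporter that loads cells with chloride, stood at 5.67 FPKM in Ross 708 and 5.88 FPKM in Isfahani, and SLC12A9, a relative of less settled function, at 7.08 FPKM in Ross 708 and 7.19 FPKM in Isfahani. The ratios of these 3 genes lay between -0.046 and -0.021, and their sign turned on centring. Their q-values were at or above 0.969 in the authors' deposited table.

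The sodium-calcium exchangers had opposite values. SLC8A1, the main exchanger of the heart, stood at 2.96 FPKM in Ross 708 and 1.60 FPKM in Isfahani, a ratio of 0.61. SLC8A3, known from mammalian skeletal muscle and brain, stood at 1.26 FPKM in Ross 708 and 2.57 FPKM in Isfahani, a ratio of -0.66. Their sum was nearly the same, 4.22 FPKM in Ross 708 and 4.17 FPKM in Isfahani, while SLC8A1 made up 70.1% of it in Ross 708 and 38.3% in Isfahani. Neither gene was called: the q-values in the authors' deposited table were 0.178 for SLC8A1 and 0.139 for SLC8A3, with unadjusted p-values of 0.0198 and 0.0129. The balance between the genes had no test of its own, and the locus of SLC8A1 also holds a row for gga-mir-6563.

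Potassium-dependent calcium exchangers were weakly expressed. SLC24A4, singled out after its values were seen, lay just outside the threshold (q = 0.0505, unadjusted p = 0.00265 in the authors' deposited table). It stood at 0.974 FPKM in Ross 708 and 0.244 FPKM in Isfahani, 4.00-fold higher in value in Ross 708, or a ratio of 0.67 with 1 FPKM added. SLC24A3 was tested too, with a ratio of 0.058.

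Magnesium transporters had nearly equal values in both breeds. SLC41A1, which carries magnesium at the cell surface, stood at 16.8 FPKM in Ross 708 and 17.2 FPKM in Isfahani. SLC41A3, a mitochondrial member in mammals, stood at 13.9 FPKM in Ross 708 and 14.1 FPKM in Isfahani. Their ratios were -0.031 and -0.021. The authors' deposited table gives q-values of 0.980 for SLC41A1 and 0.984 for SLC41A3, and both signs turned on centring and when rows with a valid estimate were given a common sum, but not when every row entered that sum.

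**Figure D3:**
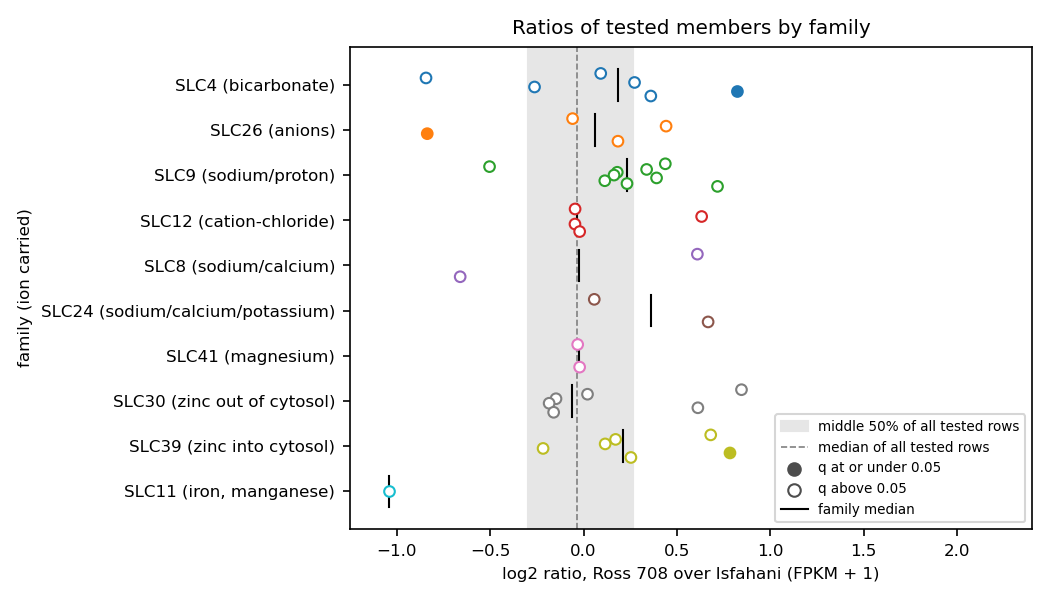
Each point is a tested member, placed by its log2 ratio of Ross 708 over Isfahani and by family; filled points have a q-value at or under 0.05, black bars are family medians, and the grey band holds the middle 50% of all tested rows. The filled points are SLC4A4 and SLC39A6 on the right and SLC26A5 on the left. Of the 9 SLC9 points, none filled, 8 lie to the right of 0, a count that 3 other scalings did not change. The 8 include the scaffold genes SLC9A3R1 and SLC9A3R2. Of all tested rows, 46.5% had the higher value in Ross 708.

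Among the zinc importers, SLC39A6 rose in Ross 708. Its protein, ZIP6, lets zinc into the cell and is known to pair with ZIP10, the product of SLC39A10. SLC39A6 stood at 3.52 FPKM in Ross 708 and 1.63 FPKM in Isfahani, 2.17-fold higher in Ross 708, a log2 ratio of 0.78. In the authors' deposited table its log2 fold change was 1.11 and its q-value 0.0223. The locus is given as chromosome 2, 88560669 to 88579128, with no overlapping row. SLC39A10 stood at 2.34 FPKM in Ross 708 and 1.08 FPKM in Isfahani, a ratio of 0.68, and missed the threshold with a q-value of 0.0847 in the authors' deposited table. The level of SLC39A6 over that of SLC39A10 was 1.508 in Ross 708 and 1.504 in Isfahani. No other tested importer of the family differed by 1.5-fold on this scale: SLC39A13 stood at 25.5 FPKM in Ross 708 and 23.4 FPKM in Isfahani, SLC39A9, of the Golgi and the cell surface, at 7.28 FPKM in Ross 708 and 5.94 FPKM in Isfahani, and the ratios of SLC39A3 and SLC39A11 were -0.22 and 0.17. SLC39A13 made up 57.2% of the summed level of the tested SLC39 genes in Ross 708 and 61.1% in Isfahani. SLC39A3 lies in a merged locus with many other genes and is uncertain.

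None of the 6 tested SLC30 genes was called in the authors' deposited table, and 1, SLC30A1, had an unadjusted p under 0.05. SLC30A1 encodes the zinc exporter of the cell surface and is known to respond to zinc through the metal-sensing factor MTF1. It stood at 7.30 FPKM in Ross 708 and 3.62 FPKM in Isfahani, 2.02-fold higher in value in Ross 708, a ratio of 0.85 (q = 0.117, unadjusted p = 0.00955 in the authors' deposited table). That was the highest ratio of the tested members with 1 FPKM added, but not with 0.1 FPKM added, where SLC39A6 (1.07), SLC39A10 (1.04) and SLC4A4 (1.03) were among those above its 0.99. Its locus overlaps a row with no gene symbol, so it is less certain. SLC30A7, a Golgi zinc carrier, stood at 7.31 FPKM in Ross 708 and 4.44 FPKM in Isfahani, a ratio of 0.61. It was not called, at a q-value of 0.478 in the authors' deposited table, and shares its locus with EXTL2. The pair that works as a complex in the early secretory pathway had slightly lower values in Ross 708: SLC30A5 stood at 17.99 FPKM in Ross 708 and 20.03 FPKM in Isfahani, and SLC30A6 at 9.94 FPKM in Ross 708 and 11.4 FPKM in Isfahani. SLC30A4 stood at 21.04 FPKM in Ross 708 and 20.7 FPKM in Isfahani, and SLC30A9 had a ratio of -0.16. Summed over the tested genes, SLC30 reached 67.9 FPKM in Ross 708 and 65.2 FPKM in Isfahani, and SLC39 reached 44.6 FPKM in Ross 708 and 38.4 FPKM in Isfahani.

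SLC11A1, the macrophage metal transporter also called NRAMP1, had the lowest ratio of all members with 1 FPKM added; with 5 FPKM added SLC26A5 was lower. It stood at 1.75 FPKM in Ross 708 and 4.66 FPKM in Isfahani, a ratio of -1.04. With a q-value of 0.0887 and an unadjusted p of 0.00635 in the authors' deposited table, it was not called. Other macrophage markers had the opposite sign: 10 of 11 had the higher value in Ross 708, also under the other scalings, with a median ratio of 0.57. The called macrophage markers were CSF1R, at 40.4 FPKM in Ross 708 and 19.99 FPKM in Isfahani, and LY86, at 28.8 FPKM in Ross 708 and 13.3 FPKM in Isfahani. LYZ, with 0.52 FPKM in Ross 708 and 3.79 FPKM in Isfahani, was the exception.

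Genes known to work with these transporters were read from a list of 70, of which 49 were tested. By the authors' deposited table, 2 were called higher in Ross 708 and 4 lower. That is 12.2% of those tested, against 5.21% of all tested rows (3.07% higher and 2.14% lower). The list was chosen with earlier results of these data known, so this share may be raised by the choice. No test of the difference was made. The median ratio of the tested partners was 0.098. The regulators of SLC12 and SLC9 transporters held 3 calls among 14 genes. SGK1, a salt-responsive kinase, rose to 61.97 FPKM in Ross 708, against 32.7 FPKM in Isfahani. WNK2, a kinase of the cascade that activates SLC12A2 and restrains the potassium-chloride cotransporters, fell to 18.02 FPKM in Ross 708, against 35.7 FPKM in Isfahani. CUL3, the ligase scaffold that with KLHL3 removes WNK kinases, fell to 67.05 FPKM in Ross 708, against 125 FPKM in Isfahani. Their q-values, from the authors' deposited table, were 0.0216 for SGK1, 0.0174 for WNK2 and 0.0369 for CUL3. The gene of the group with the highest mean over the breeds, RDX, which links membrane proteins to actin, stood at 110 FPKM in Ross 708 and 122 FPKM in Isfahani.

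Of 8 tested sodium and calcium pump genes, 1 was called. ATP1B4, a beta-type subunit gene of the sodium pump family, fell to 175 FPKM in Ross 708, against 408 FPKM in Isfahani, a ratio of -1.21, and it was also the most abundant. The value was higher in Ross 708 for the other 7, also under the other scalings, and none of them was called. Of 4 tested carbonic anhydrases, which turn carbon dioxide into bicarbonate and protons, CA9 fell to 18.9 FPKM in Ross 708, against 61.2 FPKM in Isfahani, a ratio of -1.65. CA2, a cytosolic form and the most abundant of those tested, stood at 71.96 FPKM in Ross 708 and 73.6 FPKM in Isfahani.

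Of 15 tested metal-handling genes, TF, the iron carrier transferrin, rose to 19.0 FPKM in Ross 708, against 4.84 FPKM in Isfahani, a ratio of 1.78. ATP1B4, CA9 and TF all had a q-value of 0.00245, the smallest in the authors' deposited table. The other 14 were not called, among them the ferritin gene FTH1, the most abundant, at 3905 FPKM in Ross 708 and 4344 FPKM in Isfahani. MTF1 stood at 6.53 FPKM in Ross 708 and 8.26 FPKM in Isfahani. The metallothionein gene MT4 stood at 102 FPKM in Ross 708 and 141 FPKM in Isfahani. Their q-values in the authors' deposited table were 0.615 for MTF1 and 0.401 for MT4. MT3, a second metallothionein gene of the list, was untested, at 0 in Ross 708 and 8.71 FPKM in Isfahani. A link of these genes to SLC30A1 was not tested. None of 8 tested magnesium-handling genes was called in the authors' deposited table; 1, MMGT1, had an unadjusted p under 0.05, and stood at 42.5 FPKM in Ross 708 and 67.04 FPKM in Isfahani.

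**Figure D4:**
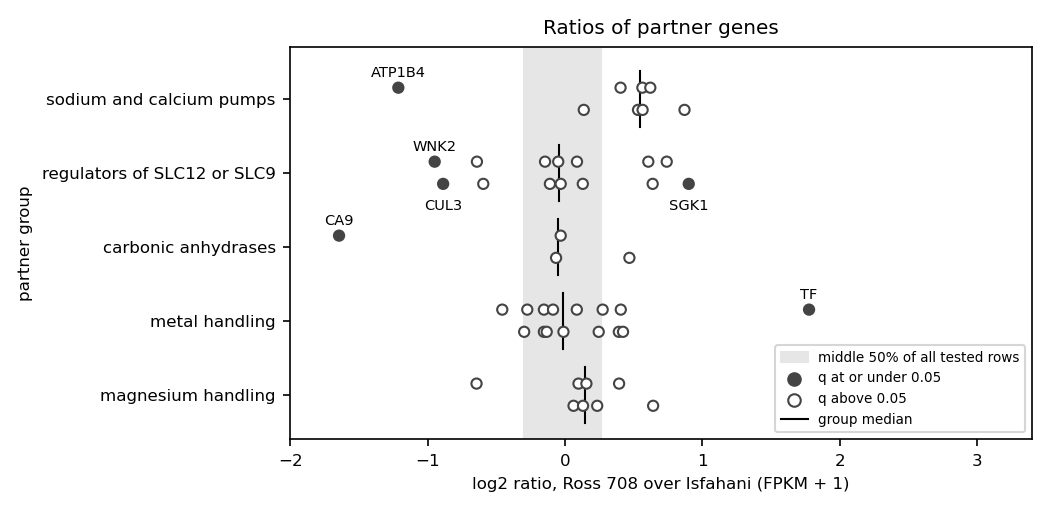
Each point is a tested partner gene, placed by its log2 ratio of Ross 708 over Isfahani; filled points have a q-value at or under 0.05, black bars are group medians, and the grey band holds the middle 50% of all tested rows. SGK1 and TF are the filled points on the right, and ATP1B4, WNK2, CUL3 and CA9 those on the left.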

How the data were processed

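Reads of 150 bases, paired, were aligned with HISAT2 and handled with the Cufflinks package, version 2.2.1, after FastQC 0.11.5 and Trimmomatic, per the submitters' processing notes and the labels. These notes name galGal5, but scaffold names in the table are those of an earlier assembly, so the build of the loci is unsettled; the annotation and the use of strand are not stated by the sources used here. The FPKM values, 1 per breed, the log2 fold changes and the p-values and q-values are the authors', as deposited. Recomputed by Benjamini-Hochberg adjustment over the 11626 tested rows, q-values differed from the deposited ones by at most 5.22e-07. In the deposited enrichment sheets, the authors give term gene numbers, fold enrichment as a ratio and adjusted p-values; gene numbers carry no unit.

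With 1 value per breed no test was run here. A gene was called at a deposited q-value at or under 0.05. The authors' p-values rest on 2 pools of 3 birds per breed, so they hold little of the spread between birds. Nothing says that the pools were separate flocks, so spread between flocks may not be in them. Ratios used a pseudocount of 1 FPKM. Calculations used Python 3.11.15 with pandas 2.3.3 and numpy 2.4.6. Only the ratio formula and the Benjamini-Hochberg adjustment were checked on simulated data, with planted differences built to be found. Values were given for called members, tested members that reached 5 FPKM in either breed, and members at 1 FPKM or more whose log2 ratio passed 1.5-fold (28 in all, 2 of which are not reported here); the rest are summarised. Partner genes were described if called or the most abundant of their group by mean level. MTF1, MT3 and MT4 were described outside this rule. Members and lists were chosen with earlier results of these data known. The alternatives were other q-value thresholds, pseudocounts, scalings and filters. No sequence is printed.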

Additional observations from a re-analysis of the deposited data

How the results depend on the processing

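No paired analysis was possible because the table gives 1 value per breed, so neither a replicate block nor leaving out a library could be run. The counts of 2 members called higher in Ross 708 and 1 lower became 0 and 0 at a q-value of 0.01, and 4 and 2 at a q-value of 0.1. With a log2 ratio of at least 1 they also became 0 and 0, but that ratio had 1 FPKM added to each value. The authors' deposited log2 fold changes, with none added, were 1.05 for SLC4A4, 1.11 for SLC39A6 and -0.88 for SLC26A5. The counts were unchanged without overlapping loci, at a mean of at least 1 FPKM, and without the 3 partner-named genes. The median ratio of 0.14 stayed between 0.043 (rescaled to the sum of all rows) and 0.19 (centred). Rescaling to the sum of all rows, chosen after seeing the data, shifts ratios of high genes by -0.13, and rescaling to the sum of rows with a valid estimate shifts them by 0.049. The sum of all rows includes the 39 rows with a failed estimate listed at 0 in Isfahani, so results under it are less certain. Signs turned for 7 of the 28 genes chosen to be given with values, none of them called. On centring SLC12A2 became 0.0055, SLC12A7 0.0048, SLC12A9 0.030, SLC41A1 0.019 and SLC41A3 0.030. At a common sum of valid rows SLC12A9 became 0.023, SLC41A1 0.015 and SLC41A3 0.025, and at the sum of all rows SLC30A4 became -0.11 and SLC39A13 -0.012. Depth is unknown, and the spread between birds is hidden in the pools.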

Other observations

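Some members lie near each other in the genome. There were 13 pairs of members less than 1000000 bases apart with no other member between them. From 0 to 67 rows of other genes lay between the 2 loci of a pair. The number of pairs to expect of 68 genes was not computed. The closest were SLC26A4 and SLC26A3, 2931 bases apart on chromosome 1 and both listed at 0 in both breeds. The SLC26A3 row overlaps those of DLD and LAMB1, so this gap is less certain. SLC9A4 and SLC9A2 lie 25730 bases apart on the same chromosome; SLC9A4 was listed at 0, and SLC9A2 stood at 0.991 FPKM in Ross 708 and 1.82 FPKM in Isfahani. SLC41A1 and SLC26A9 are 20488 bases apart on chromosome 26, with SLC26A9 listed at 0 in both breeds. SLC24A5 and SLC12A1, 15905 bases apart on chromosome 10, were both listed at 0 in both breeds. Of the 68 members 11, 7 of them tested, overlap another row of the table.

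In the authors' deposited enrichment tables SLC4A4 and SLC39A6 stand together in the same 12 of 1095 biological process terms among genes higher in Ross 708. The 5 of these with a Benjamini-adjusted p at or under 0.05 in the authors' deposited table are broad, such as localization (129 genes, adjusted p = 0.000509) and regulation of biological quality (86 genes, adjusted p = 0.00146). SLC26A5 stands in 25 of 254 terms among genes higher in Isfahani, organic anion transport (9 genes, adjusted p = 0.554 in the authors' deposited table) among them. Its lowest adjusted p in the authors' deposited table was 0.221. No member stands in any of the 29 KEGG terms.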
